A study of Homo sapiens with 16 samples.

Results

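The HOX genes read here are the 24 genes whose platform symbol is HOXA, HOXB, HOXC or HOXD followed by a number, out of 11963 genes read on the arrays. They are covered by 31 probe sets, sets of short oligonucleotides that each report 1 transcript region. HOXA is represented by 1 gene (HOXA2), HOXB by 9 (HOXB1, HOXB2, HOXB3, HOXB5, HOXB6, HOXB7, HOXB8, HOXB9 and HOXB13), HOXC by 7 (HOXC4, HOXC5, HOXC6, HOXC8, HOXC10, HOXC11 and HOXC13) and HOXD by 7 (HOXD1, HOXD4, HOXD9, HOXD10, HOXD11, HOXD12 and HOXD13). A further 3 probe sets list several symbols, among them a HOX symbol, and name no gene here.

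The 16 Affymetrix U133 2.0 arrays carried total RNA of 4 human lines, described as breast cancer lines, in 8 groups of 2 arrays. LM24175 and MDA-MB-231, described as invasive, had been infected to carry a constitutively expressed RECK construct (RECK) or an empty vector (EV). LM24175 is known to descend from MDA-MB-231, as cells recovered from lung metastases, so these lines are related. Hs606T and Hs343T, described as poorly invasive, received by transfection either an siRNA that the labels give as directed at RECK (siRECK) or one with a scrambled sequence (siSCR). RECK encodes a membrane-anchored inhibitor of matrix metalloproteinases. Every line thus carries either a vector or an siRNA, and none of the 16 arrays is of untreated cells. The kind of line and the kind of treatment cannot be told apart between the invasive and the poorly invasive lines.

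HOX genes encode homeodomain transcription factors that give cells a position along the body axis. In each cluster the genes lie in order of their paralog number, and low-numbered genes are switched on earlier and further towards the head than high-numbered ones. Fibroblasts are known to keep a HOX pattern that records the body site they came from. HOX proteins bind DNA with partners of the TALE class (PBX, MEIS and PKNOX). Polycomb proteins keep the clusters silent, Trithorax proteins keep them active, and retinoic acid switches on the low-numbered end.

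RECK was read first as a check of the labels. On the arrays labelled siRECK it averaged 11.27 ± 0.05 in Hs343T, against 5.80 ± 0.39 on the siSCR arrays (log2 level, SD, n = 2 each). In Hs606T it averaged 11.09 ± 0.10 on arrays labelled siRECK, against 8.69 ± 0.06 on siSCR arrays. RECK was therefore higher, not lower, on the arrays labelled siRECK, by 5.48 and 2.40 log2 units (limma adjusted p = 1.28e-10 and 6.65e-06), which goes against these labels. With the construct it differed by 0.03 in MDA-MB-231 (adjusted p = 0.962) and by -0.42 in LM24175 (adjusted p = 0.154). RECK therefore bears out neither the siRNA labels nor the construct labels. If the siRECK and siSCR labels of a line were exchanged, the sign of every siRECK minus siSCR difference in it would turn. The EV and siSCR arrays are called control arms by their labels alone.

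Medians over all probe sets ran from 6.42 to 6.57 log2 units per array, and the arrays of a group correlated at 0.994 to 0.998 across probe sets. The differences of first minus second array correlated between MDA-MB-231 with EV and LM24175 with RECK (r = 0.486 across genes). This r alone does not tell whether the first or the second arrays deviate. The first arrays of these groups are taken here as the arrays that deviate together. Comparisons whose groups hold either of them are also given without both. The labels do not say whether the arrays of a group represent separate cultures, so the p-values measure the spread between arrays, which may be technical. With 2 arrays a group, precision is limited throughout.

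The labelled lines were also read against cell type markers in the control arms. Of 13 mesenchymal and fibroblast markers, 3 lay above the array median on both EV arrays in LM24175 and 2 in MDA-MB-231, against 13 in Hs606T and 13 in Hs343T. Of 12 epithelial markers, 6 lay above it in LM24175 and 7 in MDA-MB-231, against 3 in each poorly invasive line. EPCAM, an epithelial adhesion molecule, averaged 8.85 in LM24175 and 8.57 in MDA-MB-231, against 4.67 in Hs606T and 4.10 in Hs343T. The epithelial markers were mixed, with 6 of 12 higher and 3 lower in the invasive lines by limma. In the same order of lines, CDH1 averaged 3.84 and 3.87 against 4.14 and 4.07. KRT19 averaged 9.33 and 10.83 against 10.68 and 9.85. Of 6 mammary markers, 1 lay above the median in LM24175, MDA-MB-231 and Hs343T and 0 in Hs606T. No leukocyte marker of the 7 did so in any line, and of 5 endothelial markers at most 1 did. By these markers Hs606T and Hs343T read as fibroblast-like, with COL1A2 at 14.57 and 14.29 and COL3A1 at 14.36 and 13.84. KRT18, an epithelial keratin, averaged 8.34 and 10.18 there. The markers thus do not bear out the description of these 2 lines as breast cancer lines, and their cell of origin was not tested.

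The promoter table used here holds 10 of the 24 HOX genes, and the sequences of 5 of them are shown because of how these genes moved. RefSeq (GRCh38.p14) gives HOXC4 and HOXC5 the same start, and these genes changed in opposite directions in Hs343T. HOXD1 and HOXD4 were the members that were higher in the invasive lines, and HOXA2 was lower on every invasive array. Each sequence is the 250 bases before the start, 5′ to 3′ on the strand of the gene (minus for HOXA2, plus for the others). Capitals mark matches on either strand to the homeodomain core TAATNA or to TGATNNAT, the composite motif of HOX and PBX proteins.
HOXC4 and HOXC5 (chr12:54016638-54016887): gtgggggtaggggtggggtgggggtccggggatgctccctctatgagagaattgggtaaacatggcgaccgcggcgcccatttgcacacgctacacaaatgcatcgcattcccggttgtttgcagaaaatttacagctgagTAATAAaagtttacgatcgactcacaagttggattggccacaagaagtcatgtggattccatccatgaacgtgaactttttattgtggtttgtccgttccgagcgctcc
HOXD4 (chr2:176151300-176151549): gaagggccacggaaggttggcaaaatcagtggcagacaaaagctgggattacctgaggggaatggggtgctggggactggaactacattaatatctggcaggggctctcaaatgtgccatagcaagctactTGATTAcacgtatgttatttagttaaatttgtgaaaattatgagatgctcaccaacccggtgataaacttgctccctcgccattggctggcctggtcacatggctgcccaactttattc
HOXD1 (chr2:176188418-176188667): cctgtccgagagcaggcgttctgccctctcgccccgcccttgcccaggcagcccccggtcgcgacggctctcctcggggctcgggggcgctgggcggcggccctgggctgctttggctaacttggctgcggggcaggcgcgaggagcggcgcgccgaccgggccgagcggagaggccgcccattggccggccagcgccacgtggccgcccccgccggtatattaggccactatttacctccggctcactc
HOXA2 (chr7:27102684-27102933): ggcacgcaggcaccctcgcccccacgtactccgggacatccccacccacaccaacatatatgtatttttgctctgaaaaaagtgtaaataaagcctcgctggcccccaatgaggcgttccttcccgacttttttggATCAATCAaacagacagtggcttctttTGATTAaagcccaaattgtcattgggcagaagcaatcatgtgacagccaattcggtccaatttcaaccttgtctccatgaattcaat

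TAATNA occurred 1 time in the HOXC4 and HOXC5 window, starting 109 bases before the start, 1 time in the HOXD4 window, 119 bases before it, and 1 time in the HOXA2 window, 87 bases before it. It did not occur in the HOXD1 window, and 21.9% of 34943 promoter windows of the same length hold it. TGATNNAT (6.49% of windows) occurred 1 time in the HOXA2 window, 114 bases before the start, without overlap with the other match, and in none of the other windows shown. Among the HOX windows not shown, HOXB1 and HOXD11 each held it 1 time. AGGTCA, a core bound by retinoic acid receptors (12.1% of windows), was found on neither strand of any of the 10. The HOXD1 window held 31 CpG dinucleotides at 74.8% G and C, the HOXC4 and HOXC5 window 14 at 50.8%, the HOXA2 window 8 at 47.2%, and the HOXD4 window 4 at 47.6%. The median window held 11 at 58.0%. A match is a run of letters and was not tested as a binding site.

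The lines differed in which HOX genes stood above the array median, by cluster and by position within it. The arrays carry no detection calls here, so a gene was read as above the array median where it was at or above the median of all probe sets on both control arrays of a line. Probe sets differ in how strongly they bind, so this is no measure of amount between genes. LM24175 and MDA-MB-231 each had the same 4 of 24 genes above the median, HOXC5, HOXC6, HOXD1 and HOXD4, beside 57% and 56.3% of all genes. Hs606T had 8 of 24 (HOXB2, HOXB5, HOXB6, HOXB7, HOXC4, HOXC5, HOXC6 and HOXC8), beside 56.5% of all genes. Hs343T had the same genes except HOXC8, which was above the median on 1 of its 2 arrays, so 7 of 24 beside 56.7%. HOXC5 and HOXC6 were thus shared by all 4 lines, the HOXB genes and HOXC4 were above the median in the poorly invasive lines, and HOXD1 and HOXD4 in the invasive ones.

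All of these genes belong to paralog groups 1 to 8, which hold 14 of the members. None of the 10 members in paralog groups 9 to 13 was above the median on both control arrays of any line. HOXC11, a gene of the hindlimb and tail end of the axis, came nearest and was above it on 1 control array of Hs343T. Against a lower bar, the 90th percentile of 28 measured tissue-restricted genes (liver, lens, sperm and similar genes that breast lines are not known to express), 12 genes passed in LM24175, 8 in MDA-MB-231, 14 in Hs606T and 13 in Hs343T. The shares of all genes that passed it were 71.8%, 70.6%, 68.9% and 70%. Of the 10 members in paralog groups 9 to 13, 2 passed this bar in LM24175, 1 in MDA-MB-231, 3 in Hs606T and 2 in Hs343T, so how far the levels follow position depends on the bar. A level under it is called below the tissue-restricted level in what follows, and a fold against a group wholly below it is given only as a bound, against that level on the same arrays.

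**Figure D1:**
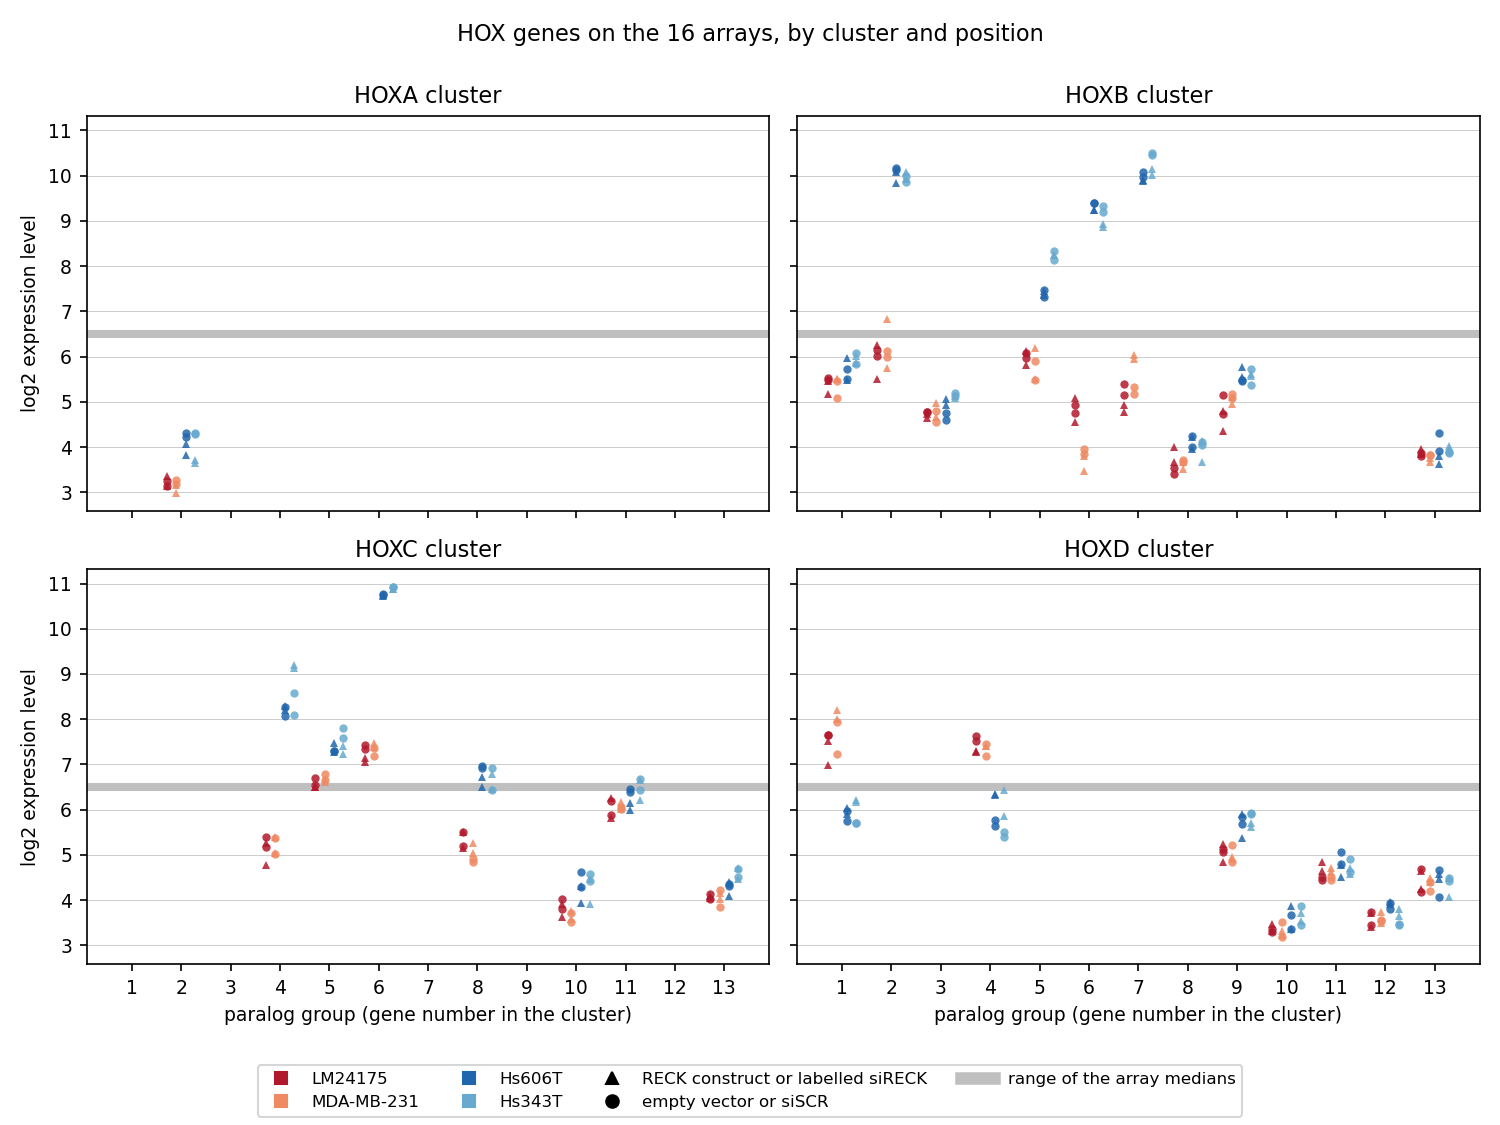
Log2 expression level (vertical axis) of the 24 HOX genes by cluster (panel) and paralog group (horizontal axis), with 1 point per array, colours for lines, triangles for RECK construct or labelled siRECK and circles for EV or siSCR. Above the grey band of array medians (6.42 to 6.57) lie HOXB2, HOXB5, HOXB6, HOXB7 and HOXC4 in the Hs lines. HOXD1 and HOXD4 lie above it in LM24175 and MDA-MB-231, as does HOXB2 on 1 MDA-MB-231 array (6.83). HOXC6 lies above it in all 4 lines, and HOXC5 lies above or within it (6.49 to 6.80 on invasive arrays). Paralog groups 9 to 13 lie at or below the band, save HOXC11 on 2 Hs343T arrays (6.68 and 6.65).

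Between the invasive and the poorly invasive lines, HOX genes differed more often towards lower levels in the invasive ones. In the control arms, 2 members were higher and 18 lower in the invasive lines, and 4 did not pass (HOXB13, HOXD10, HOXD12 and HOXD13). Over all genes 72.9% passed, 34.2% higher and 38.8% lower, beside 83.3%, 8.33% and 75.0% of the HOX genes, so the share that passed was not far from the background. The median difference was -0.50 log2 units over the HOX genes and -0.08 over all genes. Of the HOX genes 8 (33.3%) passed with at least a 2-fold lower level and 5 (20.8%) with at least an 8-fold lower one by the fitted difference, beside 8.74% and 2.01% of all genes. HOXD1 and HOXD4 passed at 2-fold in the other direction (8.33%, beside 13.1% of all genes). The test was limma's moderated test on 1 fit of all 16 arrays, 2-sided, adjusted by Benjamini and Hochberg over 11963 genes, with an adjusted p under 0.05 to pass. It treats arrays as replicates, while only 2 lines stand on each side, so it does not describe the spread between lines. Without both arrays that deviate together the same 20 members passed in the same directions (HOXB7 at -4.95, HOXC6 at -3.55 and HOXD1 at 2.01). With the arrays labelled siRECK in place of those labelled siSCR 19 passed. HOXC11 and HOXD11 then did not (adjusted p = 0.114 each), and HOXA2 (-0.60), HOXB3 (-0.33), HOXC10 (-0.39) and HOXD4 (1.202) moved by over 1.5 times.

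The widest gaps between the kinds of line were those of HOXB7 and HOXB6, while their neighbour HOXB8 overlapped and HOXB9 had a gap of 0.21. HOXB7, a trunk patterning gene known to be overexpressed in some breast cancers and melanomas, lay between 4.77 and 6.03 (median 5.25) on the 8 invasive arrays, against 9.87 to 10.50 (median 10.04) on the 8 poorly invasive arrays. No arrays overlapped, and the gap between the nearest arrays was 3.85 log2 units. In the control arms it was 31.8-fold lower in the invasive lines (95% interval 28.4 to 35.5, adjusted p = 4.64e-14), where 3 of the 4 EV arrays were at or above the tissue-restricted level.

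HOXB6, its neighbour in the cluster, lay between 3.48 and 5.09 (median 4.26) on invasive arrays, against 8.86 to 9.40 (median 9.24) on poorly invasive arrays. All 4 EV arrays lay below the tissue-restricted level, so the level was at least 19.2-fold lower in the invasive lines (mean signals 4.38 and 9.33, adjusted p = 1.16e-12), again with no overlap. Its other probe set, 205365_at, lay between 2.88 and 3.45 on invasive and 3.26 and 3.74 on poorly invasive arrays and differed by -0.10 (adjusted p = 0.487), so the HOXB6 difference rests on 1 of 2 probe sets. The mean of both gives -2.53.

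HOXB2, a hindbrain patterning gene and a known target of Hoxb1 in the mouse, had 6.01 and 6.15 on the EV arrays of LM24175 and 6.11 and 5.99 on those of MDA-MB-231. It had 10.18 and 10.12 on the siSCR arrays of Hs606T and 9.99 and 9.87 on those of Hs343T. Over all 8 arrays of each kind the levels ran from 5.50 to 6.83 (median 6.06) in the invasive lines, against 9.84 to 10.18 (median 10.03) in the poorly invasive ones. The nearest arrays lay 3.01 apart, which goes with a 15.7-fold lower level in the invasive lines (11.6 to 21.4, adjusted p = 3.03e-09).

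HOXB5, known for roles in endothelial and gut neural crest cells, had 6.07 and 5.97 in LM24175 and 5.89 and 5.49 in MDA-MB-231. It had 7.31 and 7.47 in Hs606T and 8.14 and 8.33 in Hs343T. Over all 8 arrays of each kind it ran from 5.49 to 6.18 in the invasive lines, against 7.31 to 8.33 in the poorly invasive ones. It was 3.88-fold lower in the invasive lines (3.15 to 4.79, adjusted p = 6.49e-08), and both of its probe sets were lower (-1.96 and -2.32). HOXB7's 3 probe sets were also all lower (-4.99, -4.51 and -3.47).

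In the HOXC cluster the same direction held for the members from HOXC4 to HOXC8. HOXC6, which acts in the thoracic region and the mammary gland in the mouse, lay between 7.04 and 7.48 (median 7.35) on invasive arrays, against 10.72 to 10.92 (median 10.82) on poorly invasive arrays. The 2 sets of arrays lay 3.24 log2 units apart, and the level was 11.4-fold lower in the invasive lines (10.4 to 12.4, adjusted p = 1.05e-13). It remained above the array median in every group.

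HOXC4, known for inducing the antibody-diversifying enzyme AID in B cells, lay between 4.78 and 5.40 (median 5.22), against 8.08 to 9.19 (median 8.28) on poorly invasive arrays. It was 8.12-fold lower in the invasive lines (6.56 to 10.03, adjusted p = 1.20e-09), with the arrays 2.68 apart and 3 of 4 EV arrays at or above the tissue-restricted level. HOXC8, needed for mammary bud formation and forelimb motor neurons in the mouse, had 5.52 and 5.21 in LM24175 and 4.84 and 4.91 in MDA-MB-231, against 6.97 and 6.93 in Hs606T and 6.44 and 6.91 in Hs343T. Over all 8 arrays of each kind it ran from 4.84 to 5.52, against 6.44 to 6.97. The kinds of line did not overlap for HOXC8 either, and it was 3.24-fold lower (2.68 to 3.91, adjusted p = 9.83e-08), with 2 of 4 EV arrays at or above the tissue-restricted level.

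HOXC5 differed least of the HOXC members above the median, with 6.49 to 6.80 (median 6.63) on invasive arrays against 7.23 to 7.80 (median 7.35) on poorly invasive ones. That is 1.76-fold lower (1.57 to 1.97, adjusted p = 7.58e-07). RefSeq places HOXC4, HOXC5 and HOXC6 in overlapping spans, as it does HOXD4 with HOXD3 and HOXB3 with HOXB4, so RNA of transcripts that such genes share cannot be told apart here.

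The 2 HOXD members of lowest number ran the other way. HOXD4, a hindbrain patterning gene that responds to retinoic acid, lay between 7.18 and 7.63 (median 7.41) on invasive arrays, against 5.40 to 6.42 (median 5.81) on poorly invasive arrays. All 8 invasive arrays were above all 8 others, by 0.76 at the nearest, and the control arms gave a 3.64-fold higher level in the invasive lines (3.11 to 4.27, adjusted p = 7.40e-09).

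HOXD1, known in the mouse for the wiring of pain-sensing neurons, lay between 6.99 and 8.20 (median 7.64) on invasive arrays, against 5.70 to 6.21 (median 5.94) on poorly invasive arrays. It was 3.57-fold higher in the invasive lines (2.86 to 4.45, adjusted p = 1.95e-07), and no arrays overlapped. Its probe sets differ in sign. The one read here, 205975_s_at, gave +1.83, and 205974_at, which lay between 2.999 and 3.35 on invasive and 3.11 and 3.43 on poorly invasive arrays, gave -0.18 (adjusted p = 0.0598). The mean of both gives +0.83.

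HOXA2, the HOXA member, is needed in the mouse for the hindbrain and the jaw arches. It lay between 2.98 and 3.37 (median 3.17) on invasive arrays, against 3.65 to 4.31 (median 4.14) on poorly invasive arrays, all below the tissue-restricted level. The signal differed by -1.08 log2 units (adjusted p = 6.22e-08) and no arrays overlapped, but no fold is given between levels that are both below it.

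The other members that passed were lower by less than 1 log2 unit. HOXD9 differed by -0.78, HOXC10 by -0.71, HOXB8 by -0.52, HOXB9 by -0.48, HOXC11 by -0.46, HOXC13 by -0.41, HOXB1 by -0.40, HOXD11 by -0.37 and HOXB3 by -0.20. Of these, HOXC10, HOXB8, HOXC13, HOXD11 and HOXB3 lay below the tissue-restricted level on every control array of all lines. HOXB9, read only by a probe set of the cross-hybridising kind, had 5.15 and 4.74 in LM24175 and 5.09 and 5.16 in MDA-MB-231, against 5.46 and 5.48 in Hs606T and 5.37 and 5.74 in Hs343T. Some of these genes are known for the skin and hair (HOXC13), blood progenitors (HOXB8) and the limbs (HOXD9 and HOXD11). The members that did not pass were HOXB13, a prostate and tail-end gene (-0.17, 95% interval -0.36 to 0.01), HOXD10 (-0.25, -0.54 to 0.04), HOXD12 (-0.08, -0.29 to 0.12) and HOXD13, needed for digits (-0.04, -0.38 to 0.29).

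The tissue-restricted genes give a measure of shifts among genes at low levels. Of 28 measured, 13 (46.4%) were lower in the invasive lines and 0 higher, beside 38.8% and 34.2% of all genes. Their median was -0.24, and they ranged from -0.69 to 0.07. The differences of 7 of the 20 HOX genes that passed fall inside this range (HOXB1, HOXB3, HOXB8, HOXB9, HOXC11, HOXC13 and HOXD11), and those of 13 fall outside it. Those 13 include HOXA2 and HOXC10, whose levels lay below the tissue-restricted level on every control array. In this comparison HOXB3 lost its call most often, under 16 of 26 alternatives.

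**Figure D2:**
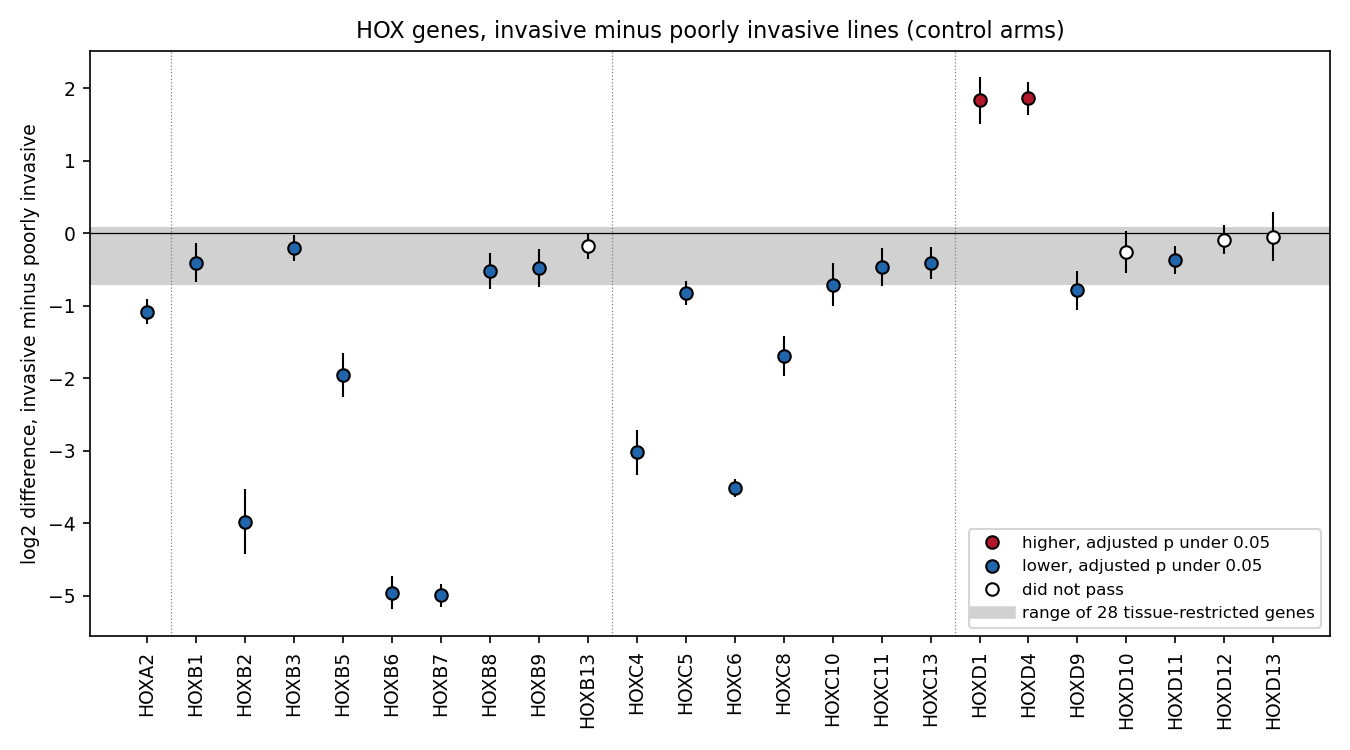
Log2 difference (vertical axis), invasive minus poorly invasive lines in the control arms, of each HOX gene in cluster order (horizontal axis), with 95% intervals from limma as bars. Red points passed as higher, blue as lower and white did not pass, and the grey band is the range of the 28 tissue-restricted genes (-0.69 to 0.07).

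Over all 16 arrays, 2 members were higher on every invasive array than on every poorly invasive one (HOXD1 and HOXD4), beside 20.4% of all genes. A further 11 were lower on every invasive array, beside 15.4% of all genes, and 11 overlapped. The markers of cell type moved with the comparison of control arms, in which 34.2% of all genes were higher and 38.8% lower. All 13 mesenchymal and fibroblast markers were lower in the invasive lines (median -6.82), with a mean level per array of 6.18 to 6.19 in LM24175 and 5.62 to 5.66 in MDA-MB-231, against 12.49 to 12.51 in Hs606T and 11.72 to 11.74 in Hs343T. All 10 proliferation markers were higher (median 3.77). Of 12 epithelial markers 6 were higher and 3 lower, of 6 mammary markers 2 higher and 1 lower, of 7 leukocyte markers 0 higher and 5 lower, and of 5 endothelial markers 1 higher and 2 lower. Their part in the HOX differences was not tested. In RNA from whole cultures, fewer cells of a type and less RNA per cell cannot be told apart.

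Fewer HOX genes differed within each kind of line. LM24175 differed from MDA-MB-231 with EV in 1 member (4.17%), which was higher, beside 20.8% of all genes (9.87% higher and 10.9% lower). HOXB6 had 4.76 and 4.93 on the LM24175 arrays, against 3.86 and 3.95 on the MDA-MB-231 arrays, with no overlap. The signal was higher by 0.94 log2 units in LM24175 (adjusted p = 0.000913), and by 0.89 without both arrays that deviate together (adjusted p = 0.00115). All 4 arrays lay below the tissue-restricted level, so no fold is given. The other HOXB6 probe set, 205365_at, had 3.33 and 3.32 in LM24175, against 3.45 and 3.07 in MDA-MB-231, and there the lines overlapped. HOXC8 had the next largest difference (0.49, 95% interval 0.10 to 0.88, adjusted p = 0.0751).

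Hs606T differed from Hs343T with siSCR in 5 members (20.8%), 1 higher and 4 lower, beside 36.8% of all genes (18.4% higher and 18.5% lower). HOXB5 was 1.80-fold lower in Hs606T (1.33 to 2.42, adjusted p = 0.00489), with both probe sets lower (-0.84 and -0.86). HOXB3 (-0.49), a gene of the hindbrain and pharyngeal glands, HOXB7 (-0.45) and HOXC5 (-0.40) were also lower in Hs606T, and HOXD12 was higher (+0.40). HOXB7 had 9.97 and 10.08 in Hs606T, against 10.50 and 10.46 in Hs343T. HOXC5 had 7.29 on both Hs606T arrays, against 7.58 and 7.80 in Hs343T. The HOXC5 call ended without the second siSCR array of Hs343T (-0.29, adjusted p = 0.108) or the first of Hs606T (adjusted p = 0.0531), and the HOXD12 call without any 1 of the 4 siSCR arrays (0.33 to 0.47, adjusted p up to 0.159). HOXB3 and HOXD12 lay below the tissue-restricted level on all 4 of these arrays. With the arrays labelled siRECK in place of siSCR 2 members passed, and HOXC5 differed by 0.056, HOXB3 by -0.11, HOXB7 by -0.19 and HOXD12 by 0.22 (adjusted p from 0.158 to 0.703).

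The partners and regulators of HOX genes were read beside them. Of 6 TALE cofactors measured of 9 listed, 1 was higher and 4 were lower in the invasive lines, beside 34.2% and 38.8% of all genes. MEIS1, a DNA-binding partner of HOX proteins, averaged 4.73 in LM24175 and 5.87 in MDA-MB-231, against 9.74 in Hs606T and 8.01 in Hs343T (11.9-fold lower, adjusted p = 2.10e-11, with 2 of 4 EV arrays at or above the tissue-restricted level). MEIS2 differed by -0.92 and PBX3 by -0.82, and PBX2 was higher by 0.75.

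Of 25 Polycomb and Trithorax genes measured of 34 listed, 15 were higher and 4 lower in the invasive lines. These are 60% and 16%, beside 34.2% and 38.8% of all genes. The share that passed in either direction, 76%, was near the 72.9% of all genes. EZH2, the methyltransferase of Polycomb complex PRC2, averaged 9.98 in LM24175 and 9.74 in MDA-MB-231, against 5.43 in Hs606T and 5.78 in Hs343T (19.1-fold higher, adjusted p = 1.20e-11, with 3 of 4 siSCR arrays at or above the tissue-restricted level). Its partners MTF2, EED and SUZ12 differed by +1.97, +1.78 and +1.58. The 10 proliferation markers were higher too, and their part in this was not tested.

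Of 14 retinoic acid genes measured of 17 listed, 4 were higher and 8 lower. These are 28.6% and 57.1%, beside 34.2% and 38.8% of all genes. CRABP2, which carries retinoic acid to its receptor, averaged 5.96 in LM24175 and 6.05 in MDA-MB-231, against 9.62 in Hs606T and 9.74 in Hs343T (12.8-fold lower, adjusted p = 4.07e-11). CYP26B1, which degrades retinoic acid, was at least 5.07-fold higher (mean signals 7.67 and 4.43, the second below the tissue-restricted level on all 4 arrays, adjusted p = 9.58e-11). DHRS3, which reduces retinal, differed by -2.81, and ALDH1A3, which makes retinoic acid, by -1.82.

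Of the 3 CDX factors, homeodomain activators of the trunk HOX genes, CDX1 (-0.79) and CDX4 (-0.38) were lower, beside 38.8% of all genes. The CDX4 difference lies inside the range of the tissue-restricted genes (-0.69 to 0.07), and that of CDX1 lies a little outside it. Of 15 genes measured of 20 listed that flank the clusters, 7 were higher and 3 lower, with a median of 0.01. The share of them that passed, 66.7%, was near the 72.9% of all genes. SNX10, a sorting nexin that lies beyond the HOXA cluster, was higher by 3.15, and SMUG1, a DNA repair glycosylase beyond the HOXC cluster, was lower by 0.81 (-0.81).

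**Figure D3:**
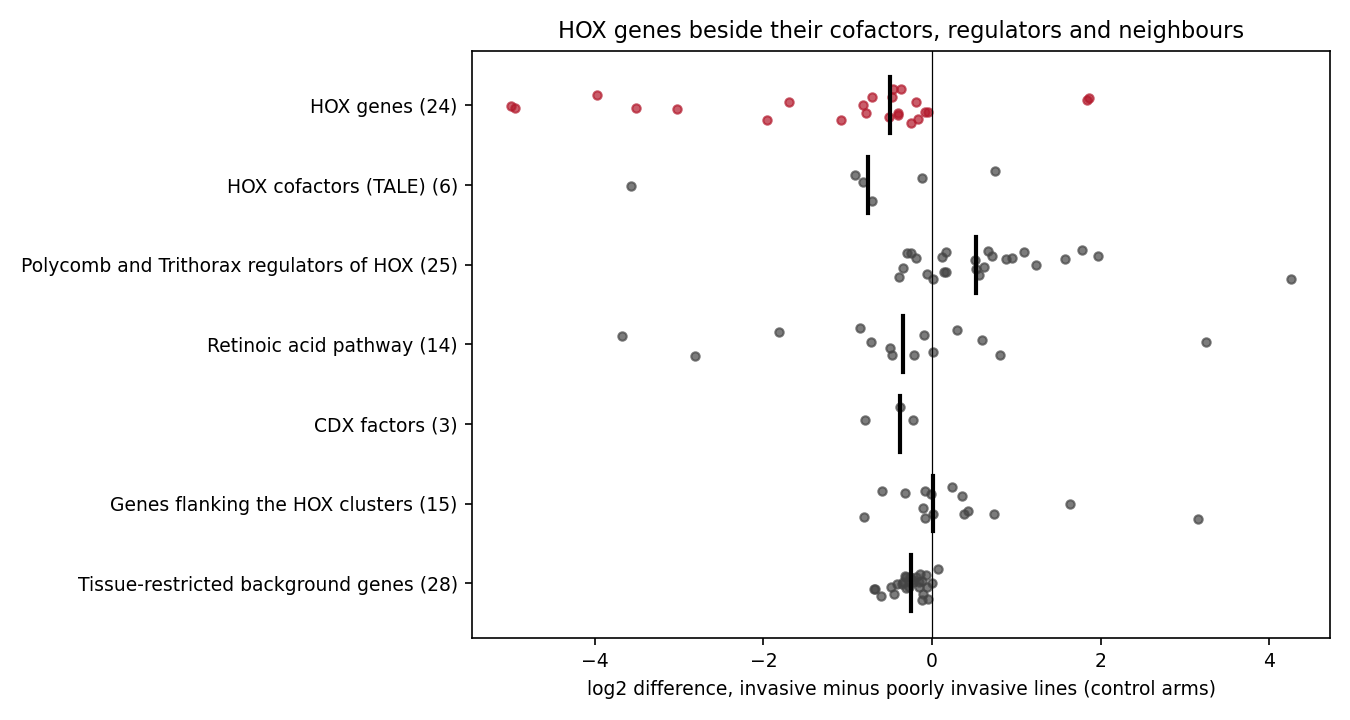
Log2 difference (horizontal axis), invasive minus poorly invasive lines in the control arms, of each measured gene (point) of the HOX genes and 6 lists, with the number of genes in brackets and the median as a bar. The medians were -0.50 for the HOX genes, -0.76 for TALE cofactors, 0.52 for Polycomb and Trithorax genes, -0.35 for retinoic acid genes, -0.38 for CDX factors, 0.01 for flanking genes and -0.24 for tissue-restricted genes.

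With the RECK construct few HOX genes changed. The HOXB7 probe set read here changed in opposite directions in the 2 lines, while the other HOXB7 probe sets passed in neither line. In LM24175, 2 members (8.33%) were lower with the construct and 0 higher, beside 6.7% of all genes, 3.27% lower and 3.44% higher. HOXB7 had 4.77 and 4.93 with RECK, against 5.16 and 5.39 with EV. The arrays did not overlap, and both RECK arrays lay below the tissue-restricted level. The signal differed by -0.42 (adjusted p = 0.0333), a level at least 1.19-fold lower with RECK. HOXC6 had 7.13 and 7.04 with RECK, against 7.35 and 7.43 with EV, which is 1.23-fold lower (1.09 to 1.39, adjusted p = 0.0463).

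In MDA-MB-231, 1 member (4.17%) passed as higher and 0 as lower, beside 0.276% of all genes, 0.226% higher and 0.0502% lower. HOXB7 had 6.03 and 5.94 with RECK, against 5.17 and 5.33 with EV. Both RECK arrays were above both EV arrays, and the level was 1.66-fold higher with RECK (1.42 to 1.94, adjusted p = 0.0175), with 1 of 2 EV arrays at or above the tissue-restricted level. HOXC6 had 7.38 and 7.48 with RECK, against 7.36 and 7.19 with EV (+0.16, 95% interval -0.02 to 0.33, adjusted p = 0.472).

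The difference between the 2 construct responses, LM24175 minus MDA-MB-231, was -1.15 for HOXB7 (adjusted p = 0.00303) and -0.46 for HOXC6 (adjusted p = 0.0470). These are 8.33% of the members, both lower in LM24175, beside 3.64% of all genes, 1.99% lower and 1.65% higher. The HOXB7 response differed between its probe sets. In LM24175 they gave -0.42, 0.02 and -0.04, and in MDA-MB-231 +0.73, +0.54 and -0.03, of which only the first passed in each line, and all of these levels lay below the array median.

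Both calls for HOXB7 rest on few arrays. Without both arrays that deviate together, HOXB7 differed by -0.34 in LM24175 (adjusted p = 0.110) and by 0.65 in MDA-MB-231 (adjusted p = 0.0400), and HOXC6 by -0.34 in LM24175 (adjusted p = 0.0227). Left out singly, the first RECK array (-0.34, adjusted p = 0.195) or the second EV array (-0.30, adjusted p = 0.289) of LM24175 ended its HOXB7 call there. In MDA-MB-231 the call ended without the first EV array (0.65, adjusted p = 0.0732) or the first RECK array (0.69, adjusted p = 0.152). The LM24175 call was also lost without either siSCR array of Hs343T (adjusted p = 0.0509), which enter only through the shared spread. HOXC6 in LM24175 lost its call under 21 of 27 alternatives, leaving out single arrays among them.

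On the arrays labelled siRECK, HOX genes changed in Hs343T. There 2 members (8.33%) were higher and 3 (12.5%) lower, beside 29.3% of all genes, 12% higher and 17.4% lower, so the share was below the background. HOXC4 had 9.19 and 9.14 on arrays labelled siRECK, against 8.10 and 8.58 on siSCR arrays. It was 1.78-fold higher (1.32 to 2.40, adjusted p = 0.00711) with no overlap.

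HOXD4 had 5.86 and 6.42 on arrays labelled siRECK, against 5.40 and 5.51 on siSCR arrays. It was 1.61-fold higher (1.29 to 2.01, adjusted p = 0.00370), and the arrays labelled siRECK were spread over 0.56 log2 units. HOXA2 had 3.65 and 3.72 on arrays labelled siRECK, against 4.31 and 4.29 on siSCR arrays, a signal difference of -0.62 (adjusted p = 0.000803) between levels that all lay below the tissue-restricted level. Of the 5 genes it was the one whose call held under all 26 alternatives.

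HOXB7 had 10.01 and 10.16 on arrays labelled siRECK, against 10.50 and 10.46 on siSCR arrays, which is 1.31-fold lower (1.12 to 1.54, adjusted p = 0.0124). HOXC5 had 7.23 and 7.40, against 7.58 and 7.80, which is 1.30-fold lower (1.11 to 1.52, adjusted p = 0.0183). HOXC5 thus fell where HOXC4, with which it shares a start in RefSeq, rose. HOXC6 did not pass (-0.05, 95% interval -0.22 to 0.13).

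Leaving out single arrays ended some of these calls. Without the first siSCR array HOXC4 gave 0.59 (adjusted p = 0.0843) and HOXB7 -0.37 (adjusted p = 0.0714). Without the second siSCR array HOXC5 gave -0.27 (adjusted p = 0.164), and without the first array labelled siRECK it gave -0.29 (adjusted p = 0.140) and HOXB7 -0.32 (adjusted p = 0.105). Other lists moved with the label in Hs343T. All 9 interferon-stimulated genes were higher, beside 12% of all genes. Their mean level was 12.94 to 12.96 on arrays labelled siRECK, against 5.78 to 5.87 on siSCR arrays. Of 10 proliferation markers 9 were lower, beside 17.4% of all genes, at 7.22 to 7.24 against 8.64 to 8.65. The part of either list in the HOX changes was not tested.

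In Hs606T 0 members passed, beside 1.2% of all genes (0.811% higher and 0.385% lower), and 5 had an unadjusted p under 0.05 (HOXA2, HOXB3, HOXB13, HOXD4 and HOXD11). HOXD4 came nearest, with 6.35 and 6.33 on arrays labelled siRECK, against 5.76 and 5.64 on siSCR arrays (+0.64, 95% interval 0.31 to 0.96, adjusted p = 0.0705). HOXA2 had 3.82 and 4.06, against 4.30 and 4.23 (-0.33, -0.56 to -0.09, adjusted p = 0.232). For both genes the arrays of the 2 labels did not overlap. The 9 interferon-stimulated genes were also higher here, at 9.40 to 9.44 against 7.28 to 7.37.

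The difference between the siRNA responses, Hs606T minus Hs343T, passed for 0 members, beside 20.4% of all genes (11.6% higher and 8.72% lower), with 4 at an unadjusted p under 0.05. The smallest adjusted p was 0.0517, for HOXC5 (0.45, 95% interval 0.13 to 0.78). HOXC4 had -0.77 (-1.38 to -0.15, adjusted p = 0.0778), and for HOXD4 the difference was -0.05 (-0.51 to 0.41, adjusted p = 0.916). A p that misses the threshold does not show that the lines responded alike.

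**Figure D4:**
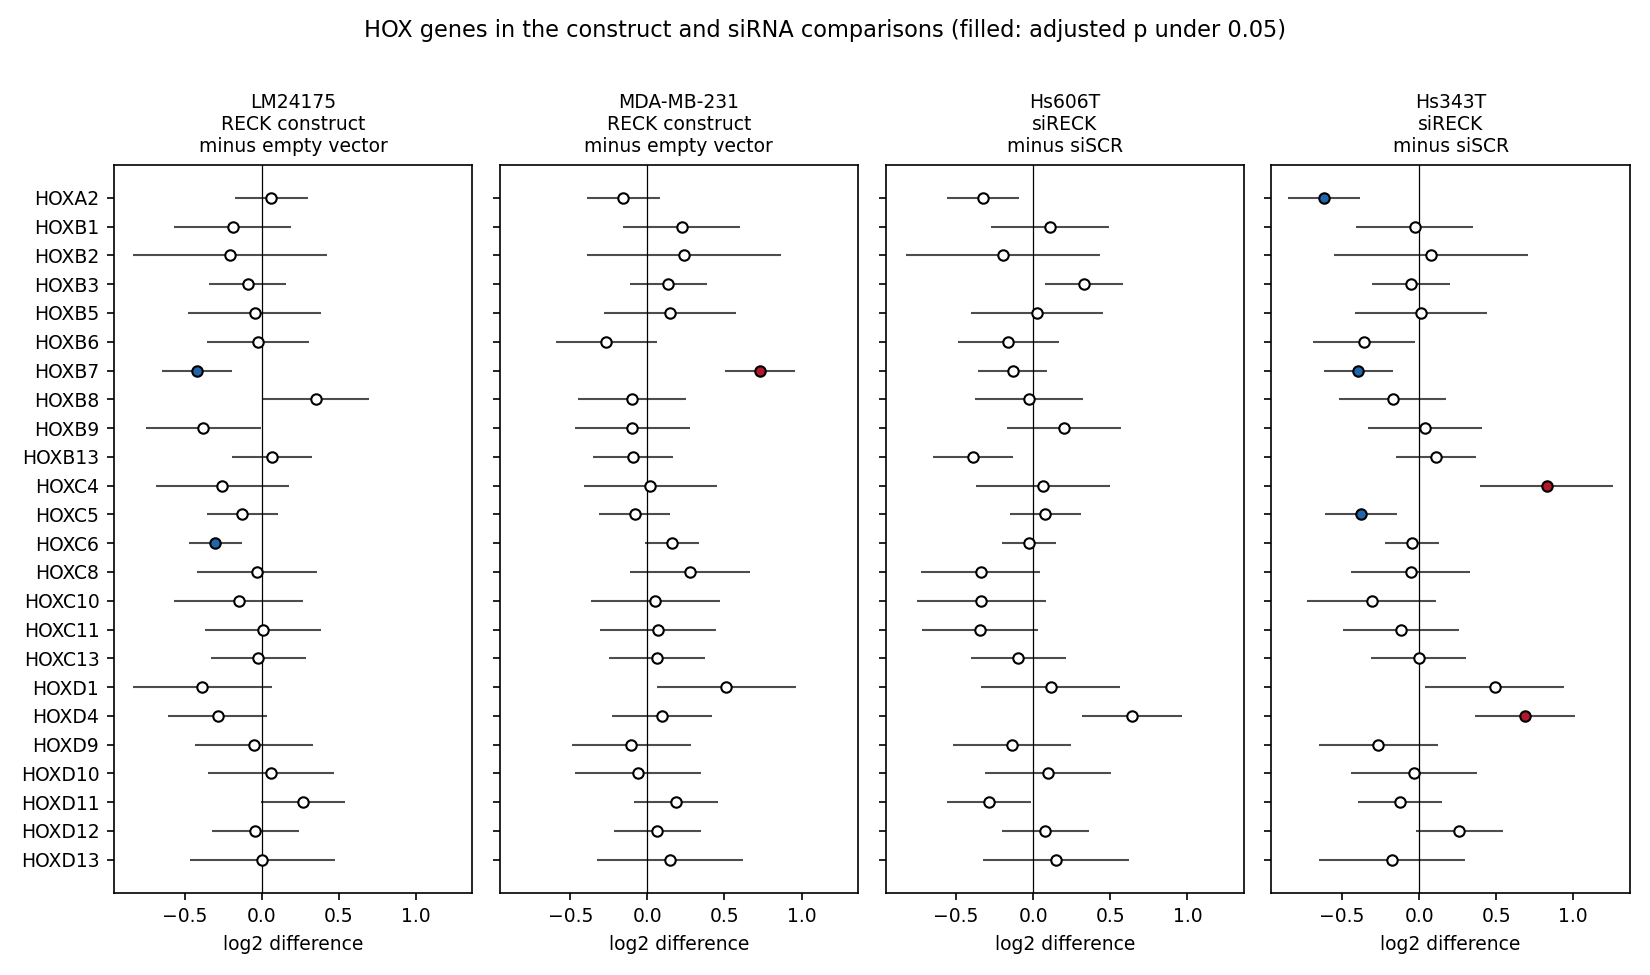
Log2 difference (horizontal axis) of each HOX gene (rows) in the 4 lines, RECK construct minus EV or labelled siRECK minus siSCR, with 95% intervals from limma as bars and filled points where the adjusted p was under 0.05 (red higher, blue lower). HOXB7 lies at -0.42 in LM24175 and 0.73 in MDA-MB-231, and HOXD4 at 0.64 in Hs606T, where it did not pass, and 0.69 in Hs343T.

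**Figure D5:**
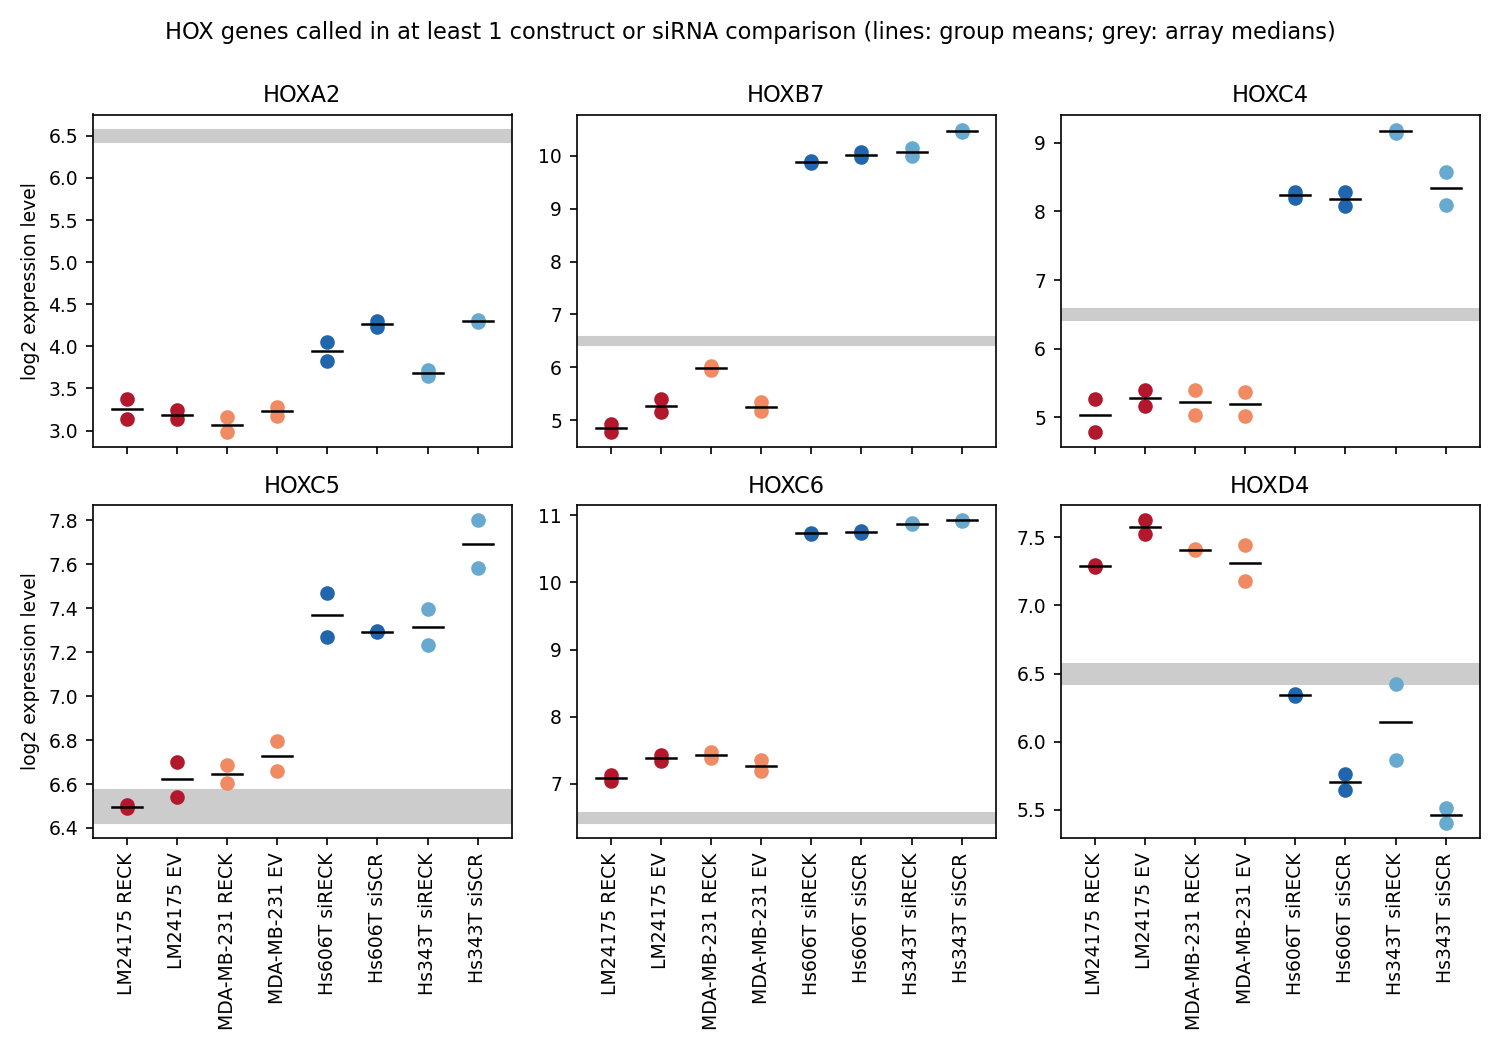
Log2 expression level (vertical axis, own scale in each panel) of the 6 HOX genes that passed in at least 1 construct or siRNA comparison, with 1 point per array, group means as lines and array medians as a grey band. HOXA2, HOXB7, HOXC4, HOXC5 and HOXC6 lie lower in every invasive group than in every poorly invasive group, and HOXD4 lies higher.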

How the data were processed

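Values are log2 signals, one for each probe set on each array, as deposited by the authors. The submitters' processing notes name Partek, into which the scanner files were imported, but no version, and how probes were summarised and scaled is not stated in the sources used here. That the scale is log2 follows from the range of the values. Of 22277 probe sets, 19064 with exactly 1 symbol in the platform annotation gave 11963 genes, each read from the probe set whose mean across the 16 arrays was highest. A single limma model (version 3.58.1, R 4.3.3) took 8 group means. It left 8 residual degrees of freedom and added 3.72 prior ones, and the median residual SD was 0.129. Values with ± are means and SDs, and intervals are 95% intervals of the model. On simulated data for the Hs343T comparison (11963 genes) the procedure recovered 74% of 1.5-fold, 84% of 2-fold and 100% of 4-fold and 8-fold changes. It made 9 false calls. The simulation changed 50 genes at each fold, gave all other genes equal group means and drew independent noise. In the data 29.3% of genes passed in this comparison and 2 arrays deviate together, so the figures need not hold for these data. Promoters were read and figures drawn with Python 3.11.15 (matplotlib 3.10.9, numpy 2.4.6, pandas 2.3.3).

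The members and gene lists were chosen with earlier results of these data known. Every HOX gene is accounted for. Values per array or their lowest, median and highest are given for genes that passed in a construct or siRNA comparison and for the 12 with the widest range of group means, and up to 4 passing genes are named per list. Alternatives were quantile normalization, median centring, the mean of probe sets, each probe set alone, leaving out the 25% of genes with the lowest mean, limma's trended robust variance, a model of only the arrays compared, replicate blocks, a 1.5-fold minimum, and arrays left out.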

Additional observations from a re-analysis of the deposited data

Results flagged for a closer look

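The construct response of HOXB7 differed between the lines by a test of the difference itself, which is why it is listed here. LM24175 minus MDA-MB-231 was -1.15 log2 units (95% interval -1.47 to -0.83, limma adjusted p = 0.00303), from -0.42 in LM24175 and 0.73 in MDA-MB-231. Without both arrays that deviate together it was -0.99 (adjusted p = 0.0124), and with the mean of its 3 probe sets -0.56 (adjusted p = 0.0916).

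HOXC6 is listed by the same test, with a difference of -0.46 (-0.71 to -0.21, limma adjusted p = 0.0470), from -0.30 in LM24175 and 0.16 in MDA-MB-231. Without both arrays that deviate together it was -0.59 (adjusted p = 0.0187). Its call was lost under 21 of 26 alternatives, with adjusted p-values up to 0.230.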

How the results depend on the processing

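Over 36 results for single genes and 960 alternative values, 852 kept their side of the threshold, 107 lost it and 1 reversed, and 16 of the 36 kept their call throughout. Counts of HOX genes that passed, 2 in LM24175 and 2 for the difference between construct responses, were 1 and 1 with quantile normalization, median centring, the mean of probe sets, each probe set alone and the replicate block. They were 0 and 1 with a 1.5-fold minimum and 0 and 0 with only the arrays compared. The 1 gene in MDA-MB-231 became 0 with the mean of probe sets and with only the arrays compared. With the replicate number as a block within each line, an alternative chosen after seeing the data, both lines had 0. Without both arrays that deviate together, LM24175 had 1. For the difference between siRNA responses (0), median centring, the mean of probe sets and leaving out the 25% of genes with the lowest mean gave 1, and the replicate block, only the arrays compared and leaving out both co-deviating arrays gave 2. Those 25% held 10 of the HOX genes, and without them Hs606T against Hs343T had 3 (not 5). The 1.5-fold minimum gave 3 in Hs343T, 1 between Hs606T and Hs343T and 13 between invasive and poorly invasive lines. With arrays labelled siRECK in place of siSCR, also chosen after seeing the data, Hs606T against Hs343T had 2, and HOXC5 there was the reversed value (0.056).

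Leaving out 1 array at a time gave 0 to 2 in LM24175, 0 to 2 in MDA-MB-231, 0 to 1 in Hs606T, 3 to 6 in Hs343T, 1 to 2 for LM24175 against MDA-MB-231, 3 to 5 for Hs606T against Hs343T, 18 to 21 for invasive against poorly invasive lines, 1 to 2 for the construct and 0 to 1 for the siRNA responses. Within a line, same-numbered arrays of the compared groups did not deviate together (r = -0.050 to 0.011 across genes). Paired samples without a shared deviation would look the same, so this does not tell whether the numbers pair the samples. At the 90th percentile of the tissue-restricted genes, 12, 8, 14 and 13 HOX genes passed in LM24175, MDA-MB-231, Hs606T and Hs343T, and at the array median plus 1, 1, 0, 5 and 7. Signal over background limits the genes below that percentile, which include HOXA2 in every line and most members of paralog groups 9 to 13. The cause of these shifts was not tested.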

Other observations

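The partners and regulators of HOX genes also changed in some construct and siRNA comparisons. In Hs343T, on arrays labelled siRECK minus siSCR, 3 of 6 TALE cofactors passed, with PKNOX1 at -1.61, PBX3 at -0.97 and MEIS2 at +0.72 (limma adjusted p = 2.96e-07, 1.48e-06 and 0.00106), beside 29.3% of all genes. In Hs606T PBX3 was lower by 0.37 (-0.37, adjusted p = 0.0480). Of 25 Polycomb and Trithorax genes, 5 were higher and 7 lower in Hs343T, beside 12% and 17.4% of all genes, led by MTF2 at +1.58 and KDM6A, a histone demethylase that opposes Polycomb, at +1.31. In LM24175, KDM6A was higher with the construct by 0.59 (adjusted p = 0.00584), DHRS3 lower (-0.93) and SNX10 lower (-1.30). None of these lists had a passing gene with the construct in MDA-MB-231, where 0.276% of all genes passed.

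Between the related invasive lines with EV, 4 of 6 TALE cofactors were lower in LM24175, beside 10.9% of all genes. Among them were MEIS1 at -1.14 and PBX2 at -0.69. MEIS1 lay below the tissue-restricted level on both LM24175 arrays, so its difference is given as a bound, at least 1.78-fold lower by group means. ALDH1A3, which makes retinoic acid, was higher (+2.17). Of the HOX genes 1 differed (4.17%, beside 20.8% of all genes). Between Hs606T and Hs343T with siSCR, MEIS1 was higher in Hs606T (+1.74) and so was JARID2, a partner of PRC2 (+2.53).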
